A study of Rattus norvegicus with 15 samples.

Results

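The comparison set rat spermatogonial stem cells given GDNF back for 4 h against the same kind of cells left without it. These groups held 6 of the 15 arrays of a study of GDNF withdrawal and return. The 3 arrays labelled as 4 h of replacement and the 3 labelled as withdrawal were taken by their titles. The cells, labelled as cultured spermatogonial stem cells, had been kept for 1 month in serum-free medium with GDNF, during which they expanded by self-renewal. The 4 h group lost GDNF for 18 h and then received it for 4 h, and the withdrawal group lost it for 18 h and was collected. Cultures given GDNF for 2 h or 8 h after the same 18 h, and a control that kept GDNF throughout, had 3 arrays each. They were tested directly against the 4 h group. All 15 arrays also entered the fit behind every SE and adjusted p, the low-value filter and the choice of probe set for each gene. The labels state that each replicate was an independent culture and give no strain or age. No cultures kept without GDNF for the further 4 h are analysed here, so the return of GDNF and the added time in culture cannot be told apart. Of the return times, 4 h was chosen because earlier results of these data gave it the most changed probe sets, so that count is given as a description.

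GDNF, glial cell line-derived neurotrophic factor, is made in the testis mainly by Sertoli cells and sustains the self-renewal of spermatogonial stem cells. It binds a GFRA co-receptor, and the complex activates the receptor tyrosine kinase RET, which recruits adaptor proteins and passes the signal to SRC family kinases, to phosphoinositide 3-kinase with AKT, and to the ERK kinases. ERK signalling induces early transcription factors within a short time and also induces its own inhibitors, the dual-specificity phosphatases and Sprouty proteins. AKT phosphorylates FOXO transcription factors and keeps them out of the nucleus, where they otherwise activate genes of cell cycle arrest and cell death. In mouse spermatogonial stem cells, Bcl6b, Etv5, Id4, Pou3f1 and Ccnd2 are known as genes that depend on GDNF.

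Each value is the intensity of a probe set as deposited, in linear units. The number of arrays limits the precision: each group had 3, SD is over those arrays, and SE is that of the log2 change in the limma fit. Undifferentiated spermatogonia were recognisable by several defining markers: Epcam averaged 9872 at 4 h and 7587 after withdrawal, Itga6 7914 and 8310, Ret 1932 and 3779, and Sall4 920.8 and 644.2. Gfra1, Thy1 and Lin28a, which also mark these cells, stayed under the low-value filter of an intensity of 16 on at least 3 of the 15 arrays, and Ddx4, Dazl, Zbtb16 and Stra8 have no probe set with 1 symbol. Sycp3, which belongs to the meiotic synaptonemal complex, was bright at 14795 at 4 h and 12607 after withdrawal. The Leydig cell genes Star, Cyp11a1, Cyp17a1 and Insl3 and the leukocyte genes Ptprc, Cd68 and Csf1r were all under the filter. Mesenchymal markers were well above it: the mean log2 level of 16 tested genes was 8.11 ± 0.25 at 4 h and 8.27 ± 0.45 after withdrawal (exact permutation test, two-sided, p = 0.6, with 0.1 the smallest p that 3 against 3 can give). Replicate 1 had the lowest value in both groups, 7.82 of 7.82, 8.22 and 8.28 at 4 h and 7.76 of 7.76, 8.46 and 8.60 after withdrawal. In these bulk samples fewer cells of a type and less RNA per cell cannot be told apart. The 5S rRNA control probe set had log2 levels of 10.53, 10.30 and 10.63 at 4 h, against 10.97, 11.03 and 10.99 after withdrawal. For the hexokinase control, the log2 level at the 3′ end exceeded that at the 5′ end by 2.21 ± 0.06 at 4 h and 2.43 ± 0.03 after withdrawal (exact permutation p = 0.1 for this and for the 5S rRNA level). The same measure was -0.14 ± 0.03 and -0.12 ± 0.03 for the GAPDH control. For the beta-actin control it was 2.13 ± 0.11 and 2.20 ± 0.04 (exact permutation p = 0.4 for each of these controls). The part of these differences in the results below was not tested.

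Of 15856 probe sets tested, 4848 (30.6%) passed an adjusted p of 0.05, 2314 higher and 2534 lower at 4 h (limma, Benjamini-Hochberg adjustment). Most of these changes were small: the median absolute log2 change of the called probe sets was 0.34, and 82.4% of them were under 1.5-fold. At least a 2-fold rise was seen for 176 probe sets (1.11%) and at least a 2-fold fall for 75 (0.473%), while 28 rose and 1 fell by 4-fold or more. The probe sets stood for 9002 named genes, of which 1326 (14.7%) rose and 1854 (20.6%) fell, with a median log2 change of -0.03 over all of them. The values of the 2 groups did not overlap for 45.6% of the named genes. These shares are the background for the gene lists described below, each of which was written with earlier results of these data known. A list count near these shares is given as a description only.

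The strongest rises mixed signalling proteins, transcription factors and cytoskeletal genes. Sfn encodes stratifin, an epithelial adaptor protein that is induced by p53 and restrains the cell cycle. Its intensity was 623.3, 687.6 and 596.7 at 4 h, against 37.9, 35.5 and 39.6 after withdrawal, a 16.9-fold rise (log2 change 4.08 ± 0.086 SE, adjusted p = 1.01e-13). S100a3, a calcium-binding protein best known from the hair follicle, had 56.9, 61.3 and 47.8 at 4 h, against 2.84, 2.27 and 2.74 after withdrawal (log2 change 4.40 ± 0.18 SE, adjusted p = 1.50e-10). The withdrawal values of S100a3 lay under the low-value level of 16. Its rise was 21.2-fold as deposited and 3.44-fold with values under 16 set to 16. Myh2, a myosin heavy chain of fast skeletal muscle fibres, had 68.3, 105.1 and 71.4 at 4 h, against 8.53, 7.88 and 7.96 after withdrawal (log2 change 3.30 ± 0.20 SE, adjusted p = 1.96e-08), a rise of 5-fold with the same floor. The groups are separate for all 3 genes because only genes with separate groups were ranked.

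Plaur, the cell surface receptor of urokinase, had 277.6, 398.4 and 374.8 at 4 h, against 23.5, 67.5 and 58.4 after withdrawal (7.65-fold, log2 change 2.94 ± 0.28 SE, adjusted p = 1.90e-06). Withdrawal replicate 1 was the lowest of its group for Plaur, and even the highest withdrawal value lay far below the lowest 4 h value. Tcf7l2, a transcription factor of the Wnt pathway that binds DNA with beta-catenin, had 239.3, 276.4 and 223.9 at 4 h, against 28.8, 52.9 and 48 after withdrawal (5.87-fold, log2 change 2.55 ± 0.21 SE, adjusted p = 4.19e-07). Iqsec3, an exchange factor for ARF GTPases, had 144.6, 119.6 and 137.2 at 4 h, against 26.4, 21.5 and 25.3 after withdrawal (5.49-fold, log2 change 2.46 ± 0.15 SE, adjusted p = 1.24e-08). Sphk1 makes the lipid messenger sphingosine 1-phosphate. Its intensity was 28.3, 44.7 and 45.7 at 4 h, against 6.31, 5.55 and 5.6 after withdrawal (log2 change 2.74 ± 0.17 SE, adjusted p = 1.85e-08), with the withdrawal arrays under 16 and a floored rise of 2.42-fold. Hivep2, a large zinc-finger transcription factor, had 263.1, 203.1 and 213.8 at 4 h, against 42.6, 60 and 48.1 after withdrawal (4.53-fold, log2 change 2.18 ± 0.17 SE, adjusted p = 3.03e-07). By the same rule, none of these 5 genes overlapped between the groups.

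Tor4a, a member of the torsin ATPase family, had 179.3, 165.6 and 162.6 at 4 h, against 28.3, 40.4 and 33.3 after withdrawal (5.02-fold, log2 change 2.33 ± 0.13 SE, adjusted p = 3.86e-09). Gbp2, a guanylate-binding GTPase induced by interferon, had 162.5, 167.9 and 173.4 at 4 h, against 32.9, 41.1 and 43.5 after withdrawal (4.31-fold, log2 change 2.11 ± 0.14 SE, adjusted p = 3.23e-08). Smad7, the inhibitory SMAD that blocks TGF-beta receptors, had 131.9, 152.1 and 141.4 at 4 h, against 37.5, 30.7 and 21.9 after withdrawal (4.83-fold, log2 change 2.27 ± 0.16 SE, adjusted p = 7.53e-08). Each of these 3 had tightly grouped values at 4 h. Trib1, a pseudokinase that directs C/EBP proteins to degradation, had 66.6, 59.5 and 63.8 at 4 h, against 19.2, 12.9 and 8.54 after withdrawal (log2 change 2.30 ± 0.26 SE, adjusted p = 9.62e-06; 3.72-fold with the floor at 16). Fhl2, a LIM-only cofactor of transcription, had 28.5, 43.4 and 32.2 at 4 h, against 6.47, 6.4 and 6.4 after withdrawal (log2 change 2.41 ± 0.21 SE, adjusted p = 6.91e-07; 2.13-fold with the floor at 16). Egr2 and Fosb complete the 15 largest rises and are given with the early transcription factors.

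The promoters of 14 of these 15 genes matched RefSeq by gene identifier, taken from 250 bases before to 50 after the annotated start (build GRCr8). Both strands were searched for the AP-1 motif TGANTCA, the cyclic AMP response element TGACGTCA, the CArG box bound by serum response factor, the EGR motif GCGNGGGCG and the ETS motif CCGGAAGT. AP-1 motifs stood in 4 promoters of the rises, Sfn, Plaur, Tor4a and Gbp2, and in 2 of the 10 matched promoters of the 15 largest falls, Rnf125 and Plpp7, while 7.33% of all 27457 promoters held one. CArG boxes stood in Egr2 and Fhl2 (1.64% of all promoters) and in none of the falls, and EGR motifs in Tcf7l2 and Hivep2 and in the falling Ppp1r26 (5.29%). No cyclic AMP element (1.91%) or ETS motif (4.01%) was found in either set. A match is a description of the sequence and not evidence of binding. Shown are 4 promoters of the rises, the 2 with a CArG box and 2 with an AP-1 motif, with the motifs in capitals: Egr2 at chr20:21054392-21054691 on the minus strand, Fhl2 at chr9:52954491-52954790 on the minus strand, Sfn at chr5:151111805-151112104 on the minus strand and Plaur at chr1:89181113-89181412 on the plus strand, each written 5′ to 3′ on the gene's strand.
Egr2: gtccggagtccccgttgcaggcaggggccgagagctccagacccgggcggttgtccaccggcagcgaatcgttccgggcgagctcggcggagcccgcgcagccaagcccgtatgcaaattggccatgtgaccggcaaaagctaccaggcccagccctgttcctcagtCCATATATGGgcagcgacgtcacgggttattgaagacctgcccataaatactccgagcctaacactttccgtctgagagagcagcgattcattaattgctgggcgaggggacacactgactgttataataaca
Fhl2: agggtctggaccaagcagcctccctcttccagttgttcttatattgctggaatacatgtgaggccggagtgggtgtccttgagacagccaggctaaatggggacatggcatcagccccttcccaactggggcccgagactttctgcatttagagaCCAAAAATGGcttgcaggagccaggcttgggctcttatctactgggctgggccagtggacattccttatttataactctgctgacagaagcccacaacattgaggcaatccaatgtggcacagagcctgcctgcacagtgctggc
Sfn: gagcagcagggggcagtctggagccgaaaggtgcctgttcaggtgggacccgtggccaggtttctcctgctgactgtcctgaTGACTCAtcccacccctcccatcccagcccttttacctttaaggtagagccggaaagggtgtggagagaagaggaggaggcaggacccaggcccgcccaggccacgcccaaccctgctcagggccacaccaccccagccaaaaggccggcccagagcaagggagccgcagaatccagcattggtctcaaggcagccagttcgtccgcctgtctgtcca
Plaur: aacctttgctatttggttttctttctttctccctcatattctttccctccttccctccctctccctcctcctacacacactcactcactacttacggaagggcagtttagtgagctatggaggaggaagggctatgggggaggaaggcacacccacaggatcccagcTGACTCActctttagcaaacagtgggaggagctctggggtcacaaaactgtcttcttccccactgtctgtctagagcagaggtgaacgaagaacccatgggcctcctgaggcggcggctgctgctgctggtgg
The CArG boxes began 83 bases before the start in Egr2 and 95 in Fhl2, and the AP-1 motifs 168 bases before it in Sfn and 83 in Plaur.

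Falls were smaller than rises. Bik encodes a BH3-only protein that promotes cell death. Its intensity was 146.8, 125.2 and 140.5 at 4 h, against 587.9, 536.4 and 557.9 after withdrawal, a 4.09-fold fall (log2 change -2.03 ± 0.10 SE, adjusted p = 8.97e-10). Clcc1, a chloride channel of the endoplasmic reticulum, had 325.6, 292.4 and 327.5 at 4 h, against 1207, 1083 and 1206 after withdrawal (3.7-fold lower, log2 change -1.89 ± 0.057 SE, adjusted p = 1.26e-11). Rnf125, a ubiquitin ligase, had 60.2, 45.9 and 63.5 at 4 h, against 237.0, 243.0 and 193.2 after withdrawal (3.99-fold lower, adjusted p = 4.98e-08). As with the rises, only genes with separate groups were ranked among the falls, so the separation in these 3 follows from that rule. Hspa1a, the inducible cytosolic heat shock chaperone, had 71.7, 68.1 and 68.8 at 4 h, against 282.9, 225.7 and 225.6 after withdrawal (3.5-fold lower, log2 change -1.81 ± 0.17 SE, adjusted p = 1.88e-06). Synm, the intermediate filament protein synemin, had 33.6, 23.9 and 24.6 at 4 h, against 101.4, 97.5 and 100.6 after withdrawal (3.7-fold lower, log2 change -1.89 ± 0.13 SE, adjusted p = 5.06e-08). Mypn, the sarcomere protein myopalladin, had 191.2, 184.0 and 189.5 at 4 h, against 539.1, 539.4 and 503.3 after withdrawal (2.8-fold lower, log2 change -1.49 ± 0.053 SE, adjusted p = 5.74e-11), with very little spread within either group.

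Fam110b, whose product associates with centrosomes, had 88, 108.0 and 107.0 at 4 h, against 372.3, 322.0 and 356.5 after withdrawal (3.48-fold lower, log2 change -1.80 ± 0.10 SE, adjusted p = 3.58e-09). A second, dimmer probe set of Fam110b also fell, with a log2 change of -0.66 and adjusted p = 0.00164. Atoh8, a basic helix-loop-helix transcription factor that responds to BMP signals, had 5.16, 5.07 and 5.02 at 4 h, against 21.5, 19.6 and 19.6 after withdrawal (log2 change -1.99 ± 0.089 SE, adjusted p = 4.75e-10). Its 4 h arrays were under 16, and the fall was 1.26-fold with low values set to 16. Chac1, a glutathione-degrading enzyme induced by ATF4, had 20.3, 12.9 and 19 at 4 h, against 45.2, 52.3 and 47.4 after withdrawal (2.83-fold lower, log2 change -1.50 ± 0.18 SE, adjusted p = 1.55e-05). The remaining members of the 15 largest falls were Plpp7, a protein of the lipid phosphatase family (3.15-fold lower), the solute carrier Slc35f2 (3.13-fold), the membrane transporter Flvcr2 (2.21-fold with the floor at 16), the protein phosphatase regulator Ppp1r26 (2.72-fold), Mfsd6 of the major facilitator superfamily (2.64-fold) and the T cell adaptor Skap1 (1.34-fold with the floor). Their adjusted p ranged from 9.07e-09 in Plpp7 to 0.000111 in Skap1, and by the rule that ranked them in none did the groups overlap.

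**Figure D1:**
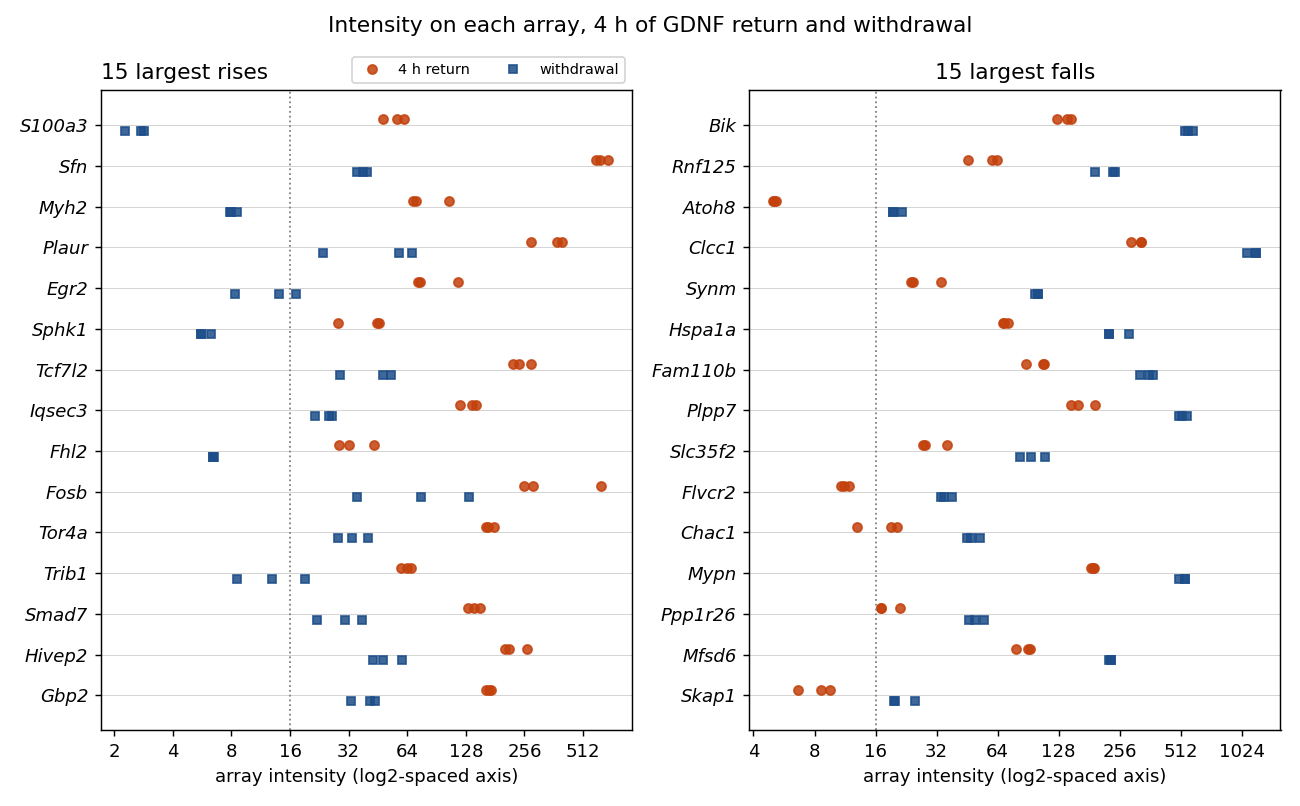
Array intensity (log2-spaced axis) of the 15 largest rises and 15 largest falls, with 3 arrays at 4 h of return (circles, upper row of each gene) and 3 after withdrawal (squares, lower row); the dotted line marks 16, the low-value level. The groups are separate for all 30 genes because only such genes were ranked. The withdrawal values of S100a3, Myh2, Sphk1 and Fhl2 all lie left of the line.

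Genes tied to GDNF in mouse spermatogonial stem cells were mostly higher: 7 of 11 tested members rose and 1 fell, with a median log2 change of 0.56. Bcl6b, a transcriptional repressor needed for stem cell maintenance in mouse culture, had 746.1, 606.6 and 652.8 at 4 h, against 178.6, 133.4 and 179.6 after withdrawal (4.1-fold, log2 change 2.04 ± 0.11 SE, adjusted p = 3.75e-09). Ccnd2, cyclin D2, had 816.0, 1015 and 998.2 at 4 h, against 331.9, 467.1 and 419.6 after withdrawal (2.33-fold, log2 change 1.22 ± 0.11 SE, adjusted p = 1.04e-06). Pou3f1, a POU domain transcription factor also called OCT6, had 264.4, 339.0 and 268.6 at 4 h, against 159.7, 139.4 and 114.8 after withdrawal (2.11-fold, log2 change 1.08 ± 0.12 SE, adjusted p = 1.18e-05). All 3 were separate between the groups, as were 45.6% of all named genes. The ETS factors Etv4 and Etv5 rose by less. Etv4 had 2821, 2594 and 2776 at 4 h, against 2069, 1750 and 1733 after withdrawal (1.48-fold, log2 change 0.56 ± 0.081 SE, adjusted p = 9.73e-05). Etv5 had 828.7, 718.8 and 714.4 at 4 h, against 549.6, 513.3 and 480.1 after withdrawal (1.46-fold, log2 change 0.55 ± 0.13 SE, adjusted p = 0.00458). Id4, an inhibitor of basic helix-loop-helix factors that marks stem spermatogonia in mouse, had 188.8, 236.8 and 174.6 at 4 h, against 133.4, 119.4 and 78.6 after withdrawal (1.84-fold, log2 change 0.88 ± 0.15 SE, adjusted p = 0.00054). Its other probe sets gave log2 changes of 0.26 and 0.45 that did not pass (adjusted p = 0.0836 and 0.0762).

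Cxcr4, a chemokine receptor, fell, with 82.1, 89.8 and 67.7 at 4 h, against 113.8, 109.2 and 105.4 after withdrawal (log2 change -0.46 ± 0.11 SE, adjusted p = 0.00416). Its other probe sets gave -0.69 (adjusted p = 0.0698) and -0.83 (adjusted p = 0.0147). Fos, Mycn and Etv1 did not pass. Fos had 2855, 2055 and 1529 at 4 h, against 2209, 1533 and 904.4 after withdrawal, with overlapping groups (log2 0.52, adjusted p = 0.265). Mycn differed little, with 857.9 ± 67.6 at 4 h and 855.5 ± 53.4 after withdrawal (log2 0.00, adjusted p = 0.979). Etv1 had 58.7, 76.4 and 81.6 at 4 h, against 67.2, 120.5 and 221.0 after withdrawal (log2 -0.76, adjusted p = 0.129), highest on withdrawal replicate 3. Without withdrawal replicate 1 its adjusted p was 0.0166.

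The receptors moved in opposite directions. Ret, the signalling receptor itself, had 1974, 1892 and 1930 at 4 h, against 3954, 3776 and 3609 after withdrawal, a 1.96-fold fall (log2 change -0.97 ± 0.043 SE, adjusted p = 4.75e-10). Gfra2 and Gfra3 encode co-receptors known best for binding neurturin and artemin. Gfra3 had 27, 33.3 and 32.4 at 4 h, against 8.88, 7.02 and 8.77 after withdrawal (log2 change 1.91 ± 0.19 SE, adjusted p = 2.43e-06; 1.92-fold with low values set to 16). Gfra2 had 129.8, 156.5 and 142.1 at 4 h, against 69.7, 102.1 and 96.9 after withdrawal (1.61-fold, log2 change 0.69 ± 0.12 SE, adjusted p = 0.000666). Ret was lower and both co-receptors were higher on every 4 h array than on any withdrawal array. Such separation was seen in 45.6% of all named genes.

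Among RET adaptors and SRC family kinases, 4 of 18 tested members rose and 2 fell (median log2 change 0.07). Over all named genes 14.7% rose and 20.6% fell. Every change in the list except that of Dok5 was under 1.3-fold. Dok5, a docking protein that binds RET, had 18.1, 21.1 and 17.5 at 4 h, against 8.91, 7.09 and 9.43 after withdrawal (log2 change 1.16 ± 0.18 SE, adjusted p = 0.000235; 1.18-fold with the floor at 16). Shc1, the adaptor that links RET to RAS, had 1161, 1196 and 1206 at 4 h, against 937.6, 1010 and 913.4 after withdrawal (1.25-fold, log2 change 0.32 ± 0.051 SE, adjusted p = 0.000278). Gab1, a scaffold for phosphoinositide 3-kinase, had 1207, 1064 and 1133 at 4 h, against 1488, 1346 and 1398 after withdrawal (1.24-fold lower, log2 change -0.31 ± 0.05 SE, adjusted p = 0.000229). Frs2 and Cbl had log2 rises of 0.23 and 0.23 (adjusted p = 0.00132 and 0.00297), but a dim Frs2 probe set fell by 0.51 (adjusted p = 0.019), and 3 other Cbl probe sets did not pass. Ptpn11 and Grb2, which carry the signal to RAS, had log2 differences of 0.09 and 0.03 (adjusted p = 0.136 and 0.697).

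ERK feedback genes were the list with the highest share of rises, 10 of 13 tested members with none lower and a median log2 change of 0.83. Dusp6, the phosphatase that inactivates ERK, had 5273, 5225 and 5057 at 4 h, against 2325, 2291 and 2299 after withdrawal (2.25-fold, log2 change 1.17 ± 0.038 SE, adjusted p = 2.72e-11). Epha2, an ephrin receptor induced by ERK, had 395.7, 414.9 and 422.3 at 4 h, against 189.7, 184.3 and 169.6 after withdrawal (2.27-fold, log2 change 1.18 ± 0.064 SE, adjusted p = 3.75e-09). Fosl1, an AP-1 subunit stabilised by ERK, had 1176, 980.1 and 1116 at 4 h, against 420.7, 436.5 and 352.7 after withdrawal (2.71-fold, log2 change 1.44 ± 0.11 SE, adjusted p = 2.68e-07). Spread within each group was small beside these differences. Spry4, a Sprouty inhibitor of receptor tyrosine kinase signalling, had 320.9, 249.6 and 286.3 at 4 h, against 156.0, 140.8 and 153.6 after withdrawal (1.89-fold, log2 change 0.92 ± 0.083 SE, adjusted p = 1.01e-06). Sh2b3, an adaptor that damps cytokine and growth factor receptors, had 2346, 2139 and 2180 at 4 h, against 1267, 1346 and 1139 after withdrawal (1.78-fold, log2 change 0.83 ± 0.055 SE, adjusted p = 4.26e-08). Ier3, an early response gene, had 224.0, 234.4 and 309.0 at 4 h, against 115.8, 136.9 and 153.2 after withdrawal (1.88-fold, log2 change 0.91 ± 0.13 SE, adjusted p = 9.70e-05). Spry1 and Spry2 did not pass, with log2 differences of 0.18 and 0.05 (adjusted p = 0.125 and 0.605).

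Early transcription factors rose in 20 of 28 tested members and fell in none (median log2 change 0.48). Egr1, the zinc-finger factor that answers most growth factors, had 5299, 4753 and 4830 at 4 h, against 2279, 2333 and 2160 after withdrawal (2.2-fold, log2 change 1.14 ± 0.053 SE, adjusted p = 7.16e-10). Egr2, whose promoter with the CArG box is shown above, had 74.8, 72.3 and 116.4 at 4 h, against 8.3, 14.1 and 17.1 after withdrawal (log2 change 2.76 ± 0.23 SE, adjusted p = 4.19e-07; 5.23-fold with the floor at 16). Nab2, the corepressor that EGR proteins induce and bind, had 2525, 2034 and 2204 at 4 h, against 777.8, 713.7 and 711.3 after withdrawal (3.06-fold, log2 change 1.61 ± 0.071 SE, adjusted p = 4.49e-10). Junb, an AP-1 subunit, had 625.2, 615.8 and 697.2 at 4 h, against 151.3, 178.9 and 188.2 after withdrawal (3.75-fold, log2 change 1.91 ± 0.11 SE, adjusted p = 1.03e-08). Fosb, its FOS family partner, had 635.6, 254.0 and 282.2 at 4 h, against 133.0, 75.2 and 35.4 after withdrawal (5.05-fold, log2 change 2.34 ± 0.51 SE, adjusted p = 0.00285), and 4 h replicate 1 was more than 2-fold above the other 4 h arrays. Maff, a small MAF protein, had 331.8, 363.3 and 333.9 at 4 h, against 114.3, 104.8 and 107.7 after withdrawal (3.15-fold, log2 change 1.65 ± 0.11 SE, adjusted p = 2.93e-08). Klf10, a Krüppel-like factor also induced by TGF-beta, had 4247, 5024 and 4692 at 4 h, against 2073, 1893 and 1906 after withdrawal (2.37-fold, log2 change 1.25 ± 0.059 SE, adjusted p = 8.97e-10). Id1, an inhibitor of basic helix-loop-helix factors, had 556.9, 639.5 and 612.6 at 4 h, against 226.6, 245.4 and 249.5 after withdrawal (2.51-fold, log2 change 1.33 ± 0.084 SE, adjusted p = 2.43e-08). Jund and Zfp36l1 did not pass, with log2 differences of 0.09 and 0.03 (adjusted p = 0.276 and 0.876).

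**Figure D2:**
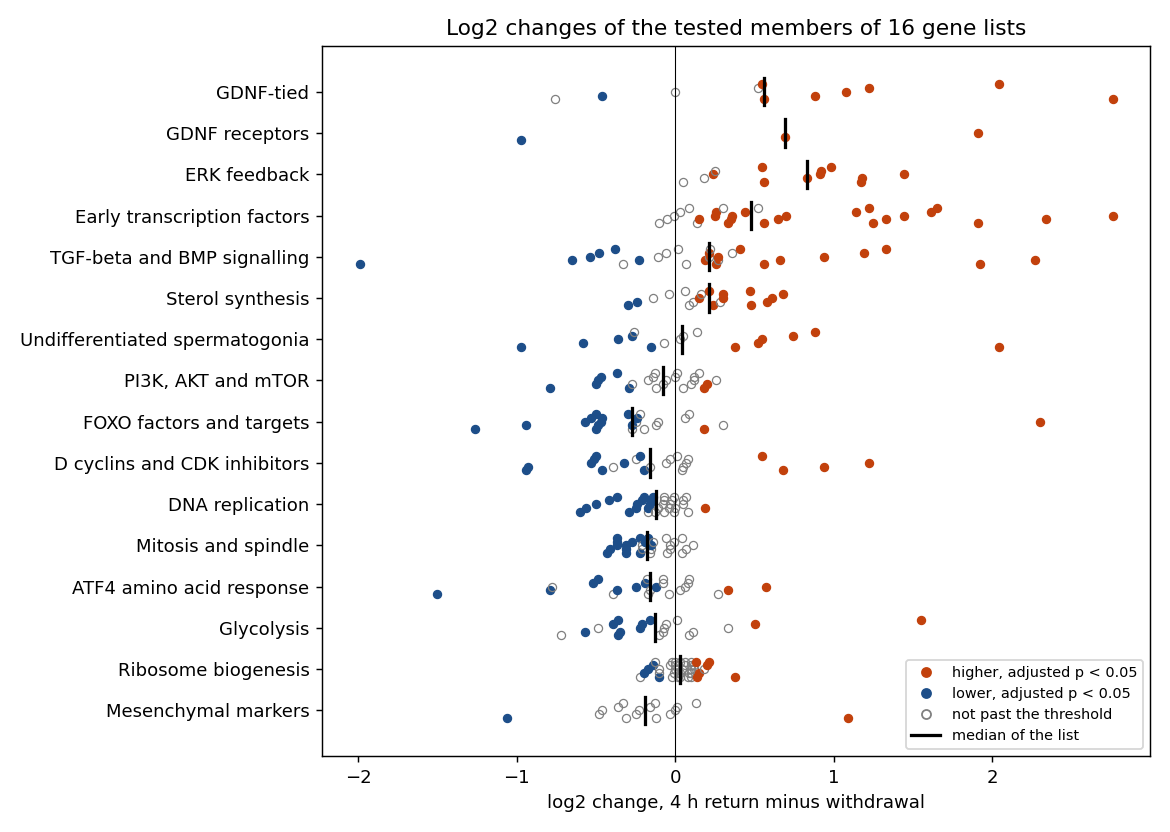
Log2 change (4 h return minus withdrawal) of every tested member of 16 gene lists; filled circles passed an adjusted p of 0.05, open circles did not, and the black bar is the median of the list. Members of ERK feedback and early transcription factors lie mostly to the right, with medians of 0.83 and 0.48, and those of FOXO factors and targets, mitosis and DNA replication mostly to the left, with medians of -0.27, -0.18 and -0.12.

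TGF-beta and BMP signalling genes divided, 12 of 27 tested members higher and 6 lower (median log2 change 0.21). Inhibitors and targets were among the rises. Skil, the SMAD corepressor SnoN, had 5718, 6365 and 6128 at 4 h, against 2838, 2618 and 2546 after withdrawal (2.28-fold, log2 change 1.19 ± 0.055 SE, adjusted p = 6.01e-10). Tgfb1, the ligand, had 543.6, 587.3 and 521.8 at 4 h, against 285.3, 277.4 and 299.7 after withdrawal (1.91-fold, log2 change 0.94 ± 0.071 SE, adjusted p = 1.60e-07). Bmp7, another ligand of the superfamily, fell, with 331.7, 268.2 and 304.7 at 4 h, against 504.1, 473.8 and 441.1 after withdrawal (1.57-fold lower, log2 change -0.65 ± 0.09 SE, adjusted p = 6.98e-05). The shared mediators Smad4 and Smad2 had log2 differences of 0.02 and -0.06 (adjusted p = 0.636 and 0.382). With Smad7 and Id1 higher and Atoh8 lower, the named members of the list moved both ways.

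In the Wnt list 4 of 14 tested members rose and 2 fell (median log2 change 0.03), and the number lower was 1 without withdrawal replicate 1, withdrawal replicate 3 or 4 h replicate 2. Beside Tcf7l2, Lef1, its relative among the TCF factors, had 558.2, 429.8 and 416.1 at 4 h, against 268.4, 249.3 and 253.6 after withdrawal (1.81-fold, log2 change 0.85 ± 0.10 SE, adjusted p = 9.58e-06). Tcf7, a further member of that family, differed by -0.09 and beta-catenin, Ctnnb1, by 0.03 in log2 terms (adjusted p = 0.303 and 0.757). Sfrp1, a secreted inhibitor of Wnt ligands, fell, with 56.9, 52.6 and 57.9 at 4 h, against 98.7, 133.3 and 77.3 after withdrawal (log2 change -0.85 ± 0.16 SE, adjusted p = 0.00097). In the Notch list 3 of 11 rose and 2 fell. Its target genes Hes1 and Hey1 went opposite ways. Hes1 had 1512, 1674 and 1782 at 4 h, against 724.5, 781.3 and 736.2 after withdrawal (2.21-fold, log2 change 1.15 ± 0.067 SE, adjusted p = 1.09e-08). Hey1 had 70.9, 109.4 and 94.1 at 4 h, against 202.3, 163.7 and 194.2 after withdrawal (2.07-fold lower, log2 change -1.05 ± 0.13 SE, adjusted p = 2.84e-05). Rbpj, the DNA-binding partner of Notch, had 1275, 1364 and 1242 at 4 h, against 1038, 982.6 and 1066 after withdrawal (1.26-fold, log2 change 0.33 ± 0.064 SE, adjusted p = 0.00124), and of its other probe sets 1 also rose (log2 0.24, adjusted p = 0.0118) and 1 missed the threshold (log2 0.16, adjusted p = 0.0521). Jag2, a Notch ligand, had 284.0, 265.0 and 246.3 at 4 h, against 320.5, 350.0 and 318.5 after withdrawal (1.24-fold lower, log2 change -0.32 ± 0.081 SE, adjusted p = 0.00815). Among HOX and TALE homeobox genes 3 of 12 rose and 1 fell (median log2 change -0.07), and the number lower was 2 without withdrawal replicate 1 and 0 without withdrawal replicate 2, withdrawal replicate 3, 4 h replicate 1 or 4 h replicate 2. Hoxc4 rose, with 1119, 1073 and 1085 at 4 h, against 481.6, 453.5 and 443.4 after withdrawal (2.38-fold, log2 change 1.25 ± 0.05 SE, adjusted p = 1.61e-10), while a dim second probe set of Hoxc4 did not pass (log2 0.21, adjusted p = 0.114). Pknox1, a TALE partner of HOX proteins, had 330.7, 238.6 and 285.2 at 4 h, against 209.0, 208.5 and 199.3 after withdrawal (1.37-fold, log2 change 0.46 ± 0.094 SE, adjusted p = 0.00194), and its other probe set did not pass (log2 0.30, adjusted p = 0.0655). Hoxc5 rose (log2 0.61, adjusted p = 0.0414) and Pknox2 fell (log2 -0.50, adjusted p = 0.0285), and both calls were lost when any single array other than withdrawal replicate 1 was left out (highest adjusted p over the alternatives 0.192 for Hoxc5 and 0.113 for Pknox2).

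Stem cell and undifferentiated spermatogonia genes gave 6 of 16 members higher and 5 lower (median log2 change 0.04), and the number lower was 3 without 4 h replicate 2 and 3 with replicate 1 of both groups left out. Their mean log2 level was 9.98 ± 0.03 at 4 h and 9.82 ± 0.07 after withdrawal. It was higher on every 4 h array (exact permutation test, p = 0.1, the smallest possible), and its part in the results was not tested. Sall4, a zinc-finger factor of undifferentiated spermatogonia, had 983.6, 862.4 and 916.3 at 4 h, against 687.9, 689.4 and 555.4 after withdrawal (1.43-fold, log2 change 0.52 ± 0.09 SE, adjusted p = 0.000504). Epcam, an epithelial adhesion molecule, had 10202, 9490 and 9924 at 4 h, against 7907, 7720 and 7135 after withdrawal (1.3-fold, log2 change 0.38 ± 0.043 SE, adjusted p = 1.10e-05). Itgb1, the integrin beta 1 chain, had 1536, 1726 and 1589 at 4 h, against 934.6, 960.9 and 1016 after withdrawal (1.67-fold, log2 change 0.74 ± 0.065 SE, adjusted p = 9.13e-07), and its other probe set rose by less (log2 0.44, adjusted p = 0.0332). Cdh1, E-cadherin, went the other way, with 385.5, 354.2 and 319.6 at 4 h, against 548.8, 535.4 and 494.4 after withdrawal (1.49-fold lower, log2 change -0.58 ± 0.072 SE, adjusted p = 2.86e-05). Itga6 and Piwil2 did not pass with their brightest probe sets (log2 -0.07 and 0.03, adjusted p = 0.441 and 0.702), although 2 dimmer Itga6 probe sets fell by 0.26 and 0.28 (adjusted p = 0.0109 and 0.00205). Among 10 differentiation and meiosis genes, 2 rose and 3 fell. Smc1b, a cohesin subunit of meiosis, had 1316, 1234 and 1285 at 4 h, against 1654, 1446 and 1465 after withdrawal (log2 change -0.25 ± 0.059 SE, adjusted p = 0.00523). Kit, the receptor that marks differentiating spermatogonia, had 101.8, 101.4 and 113.5 at 4 h, against 193.3, 166.2 and 136.9 after withdrawal (1.55-fold lower, log2 change -0.64 ± 0.12 SE, adjusted p = 0.00087), and the synaptonemal complex genes Sycp1 and Sycp3 had log2 rises of 0.55 and 0.23 (adjusted p = 0.00018 and 0.0046).

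FOXO factors and their known targets were lower: 12 of 23 tested members fell, 2 rose, and the median log2 change was -0.27. Foxo3, a FOXO factor of germ cells, had 278.6, 247.8 and 261.1 at 4 h, against 601.3, 665.5 and 623.3 after withdrawal (2.4-fold lower, log2 change -1.26 ± 0.081 SE, adjusted p = 2.93e-08). Cdkn1b, the CDK inhibitor p27 and a FOXO target, had 65.6, 75.4 and 79.6 at 4 h, against 134.6, 144.5 and 142.3 after withdrawal (1.92-fold lower, log2 change -0.94 ± 0.11 SE, adjusted p = 1.52e-05). Txnip, an inhibitor of thioredoxin and glucose uptake, had 1367, 1400 and 1500 at 4 h, against 2127, 1922 and 2132 after withdrawal (1.45-fold lower, log2 change -0.53 ± 0.046 SE, adjusted p = 6.21e-07). Ccng2, an atypical cyclin of quiescent cells, had 824.5, 897.1 and 889.6 at 4 h, against 1278, 1252 and 1168 after withdrawal (1.42-fold lower, log2 change -0.50 ± 0.062 SE, adjusted p = 2.55e-05). Igf1r, the insulin-like growth factor receptor, had 578.0, 591.4 and 588.3 at 4 h, against 855.3, 790.3 and 824.4 after withdrawal (1.4-fold lower, log2 change -0.49 ± 0.046 SE, adjusted p = 1.75e-06). These 5 genes were named for their small adjusted p. Their groups did not overlap, which was also so for 45.6% of all named genes. Ddit4 and Trib1 were the members that rose, and Sod2 and Cited2 did not pass (log2 -0.11 and 0.09, adjusted p = 0.153 and 0.526).

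In the phosphoinositide 3-kinase, AKT and mTOR list, 2 of 23 members rose and 6 fell (median log2 change -0.08). Sesn2, a sestrin that restrains mTOR complex activity when amino acids are short, had 193.2, 168.3 and 169.5 at 4 h, against 328.7, 303.1 and 287.7 after withdrawal (1.73-fold lower, log2 change -0.79 ± 0.073 SE, adjusted p = 1.35e-06). Eif4ebp1, a repressor of translation that mTOR inactivates, had 832.6, 840.0 and 915.0 at 4 h, against 1033, 1080 and 1051 after withdrawal (1.22-fold lower, log2 change -0.29 ± 0.058 SE, adjusted p = 0.0015). Rheb, the GTPase that activates mTOR, and Ddit4, an mTOR inhibitor induced by stress, had log2 rises of 0.20 and 0.18 (adjusted p = 0.00146 and 0.00848). A dim second probe set of Rheb did not pass (log2 0.37, adjusted p = 0.26). The kinase genes Pdpk1 and Rictor, of which Rictor belongs to an mTOR complex, had log2 differences of 0.05 and 0.12 (adjusted p = 0.503 and 0.118).

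In the BCL2 family, 3 of 11 members rose and 4 fell. Beside Bik, the pro-death members Bad and Bnip3 fell. Bad had 111.3, 128.9 and 125.6 at 4 h, against 165.3, 155.5 and 162.8 after withdrawal (1.32-fold lower, log2 change -0.40 ± 0.073 SE, adjusted p = 0.000687). Bnip3 had 487.3, 408.5 and 482.8 at 4 h, against 581.9, 611.9 and 632.8 after withdrawal (1.33-fold lower, log2 change -0.41 ± 0.078 SE, adjusted p = 0.00108). Mcl1, a short-lived survival protein, had 7487, 8067 and 7425 at 4 h, against 5434, 5247 and 5008 after withdrawal (1.46-fold, log2 change 0.55 ± 0.047 SE, adjusted p = 6.30e-07). Bid, a pro-death member, rose by 0.19 (adjusted p = 0.017), a call lost without 4 h replicate 1 (highest adjusted p over the settings 0.118), while its other probe set rose by 0.48 (adjusted p = 0.000188).

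Several cell cycle lists held more falls than rises, though the first of them pools genes that drive the cycle with genes that restrain it. Among D cyclins, CDK inhibitors and related regulators, 4 of 23 rose and 9 fell (median log2 change -0.16). Those lower included the CDK inhibitors Cdkn1b, Cdkn1c and Cdkn2d, and also the kinase gene Cdk4, while cyclin D2 (Ccnd2) rose. The CDK inhibitor gene Cdkn2a passed only narrowly and with overlapping groups. It had 41.4, 42.8 and 55.5 at 4 h, against 50.2, 69.5 and 84.4 after withdrawal (log2 change -0.53, adjusted p = 0.049). Ccng1, cyclin G1, a p53 target, had 753.4, 791.1 and 732.6 at 4 h, against 1423, 1451 and 1447 after withdrawal (1.9-fold lower, log2 change -0.93 ± 0.043 SE, adjusted p = 7.16e-10). Cdkn1a, the CDK inhibitor p21, went the other way, with 390.8, 346.4 and 343.7 at 4 h, against 233.7, 229.0 and 212.4 after withdrawal (1.6-fold, log2 change 0.68 ± 0.078 SE, adjusted p = 1.25e-05), while its dim second probe set had a log2 difference of 0.37 (adjusted p = 0.505). Gadd45b, a stress-induced gene, rose, with 288.0, 275.9 and 266.6 at 4 h, against 195.2, 185.7 and 185.3 after withdrawal (1.47-fold, log2 change 0.55 ± 0.07 SE, adjusted p = 3.38e-05). Rbl1 and Ccne2 had log2 differences of 0.01 and -0.03 (adjusted p = 0.899 and 0.768).

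Mitosis and spindle genes fell in 14 of 28 members and rose in none, with a median log2 change of -0.18 and no fall past 1.4-fold. Ccnb2, a mitotic cyclin, had 3684, 3476 and 3574 at 4 h, against 4719, 4569 and 4537 after withdrawal (1.29-fold lower, log2 change -0.37 ± 0.036 SE, adjusted p = 2.28e-06). Ccnb1, its partner gene, had 3283, 3430 and 3146 at 4 h, against 4144, 3988 and 4081 after withdrawal (1.24-fold lower, log2 change -0.31 ± 0.044 SE, adjusted p = 9.21e-05). Kif20a, a kinesin of the central spindle, had 1003, 996.2 and 1031 at 4 h, against 1356, 1308 and 1366 after withdrawal (1.33-fold lower, log2 change -0.41 ± 0.053 SE, adjusted p = 3.59e-05). Espl1, separase, had 973.1, 811.6 and 900.5 at 4 h, against 1321, 1245 and 1061 after withdrawal (1.35-fold lower, log2 change -0.43 ± 0.077 SE, adjusted p = 0.000634). Bub1b, a kinase of the spindle checkpoint, had 1339, 1359 and 1242 at 4 h, against 1634, 1640 and 1602 after withdrawal (log2 change -0.31 ± 0.044 SE, adjusted p = 9.20e-05). Kif2c, a kinesin that shortens microtubules, had 450.5, 450.6 and 453.5 at 4 h, against 601.3, 593.0 and 553.9 after withdrawal (log2 change -0.37 ± 0.059 SE, adjusted p = 0.000257). These 6 were named for their small adjusted p. Their groups were separate, as were those of 45.6% of all named genes. Ccna2 and Nuf2, equally part of mitosis, had log2 differences of -0.01 and -0.03 (adjusted p = 0.942 and 0.619).

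DNA replication genes fell in 14 of 32 members and rose in 1, with a median log2 change of -0.12. Rpa1, the large subunit of the single-strand DNA binding complex, had 1471, 1506 and 1342 at 4 h, against 2258, 2174 and 2105 after withdrawal (1.51-fold lower, log2 change -0.60 ± 0.064 SE, adjusted p = 5.69e-06). Pold1, the catalytic subunit of DNA polymerase delta, had 1250, 1166 and 1290 at 4 h, against 1732, 1604 and 1628 after withdrawal (1.34-fold lower, log2 change -0.42 ± 0.057 SE, adjusted p = 5.55e-05). Rrm1, a ribonucleotide reductase subunit, had 1611, 1568 and 1531 at 4 h, against 1813, 1756 and 1727 after withdrawal (log2 change -0.17 ± 0.041 SE, adjusted p = 0.00575). Pola1 and Pola2, subunits of the polymerase that starts replication, fell by 1.41-fold and 1.47-fold (adjusted p = 0.000787 and 0.000331). Pcna, the sliding clamp, had 7962, 7838 and 7952 at 4 h, against 7447, 7556 and 7888 after withdrawal, with overlapping groups (log2 0.05, adjusted p = 0.248), and Prim1 had a log2 difference of 0.05 (adjusted p = 0.501). The number lower was 9 without withdrawal replicate 1, 8 without 4 h replicate 3, 9 in a fit of the 2 groups alone and 6 with replicate 1 of both groups left out.

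Sterol synthesis genes rose in 10 of 19 members (median log2 change 0.21). Idi1, isopentenyl diphosphate isomerase, had 4104, 3607 and 3726 at 4 h, against 2660, 2448 and 2522 after withdrawal (1.5-fold, log2 change 0.58 ± 0.047 SE, adjusted p = 3.32e-07). Insig1, which retains the SREBP activator complex in the endoplasmic reticulum, had 2693, 2076 and 2482 at 4 h, against 1589, 1496 and 1408 after withdrawal (1.61-fold, log2 change 0.68 ± 0.077 SE, adjusted p = 1.05e-05). Msmo1 and Cyp51, enzymes that demethylate lanosterol and its products, had 1655, 1729 and 1737 at 4 h, against 1114, 1060 and 1182 after withdrawal, and 1877, 1880 and 1806 at 4 h, against 1377, 1263 and 1338 after withdrawal (1.53-fold and 1.4-fold, adjusted p = 9.99e-07 and 2.58e-07). Stard4, a carrier of cholesterol between membranes, had 511.6, 482.5 and 487.1 at 4 h, against 377.3, 359.3 and 336.0 after withdrawal (1.38-fold, log2 change 0.47 ± 0.054 SE, adjusted p = 1.32e-05), and its other probe set gave a log2 change of 0.71 (adjusted p = 5.62e-06). Fdps, farnesyl diphosphate synthase, had 4765, 4562 and 4992 at 4 h, against 4021, 4014 and 4075 after withdrawal (1.18-fold, log2 change 0.24 ± 0.035 SE, adjusted p = 0.000104). Dhcr7 and Lss had log2 differences of -0.04 and 0.16 (adjusted p = 0.719 and 0.215). The 2 members that fell, Acat2 and Ebp, were 0 without withdrawal replicate 1 and 1 without withdrawal replicate 2 or without any single 4 h array. In the fatty acid list 3 of 14 rose and none fell, while 1 was lower without withdrawal replicate 1 and 3 were lower with the mesenchymal marker level as a covariate. Acsl4, an acyl-CoA synthetase for arachidonate, had 1990, 1981 and 1880 at 4 h, against 1430, 1250 and 1121 after withdrawal (1.55-fold, log2 change 0.63 ± 0.074 SE, adjusted p = 1.52e-05). Elovl5, an elongase, had 6975, 6170 and 6603 at 4 h, against 5278, 4969 and 5204 after withdrawal (1.28-fold, log2 change 0.35 ± 0.041 SE, adjusted p = 1.28e-05). Me1, malic enzyme, had 1306, 1122 and 1288 at 4 h, against 1084, 1024 and 1026 after withdrawal (log2 change 0.24 ± 0.056 SE, adjusted p = 0.00404), and its other probe set gave 0.64 (adjusted p = 6.12e-08). Fasn, fatty acid synthase, and Acly, which supplies its acetyl-CoA, had log2 differences of 0.03 and -0.09 (adjusted p = 0.607 and 0.146).

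ATF4 amino acid response genes fell in 8 of 23 members and rose in 2 (median log2 change -0.16). Phgdh, the entry enzyme of serine synthesis, had 445.7, 430.9 and 506.5 at 4 h, against 593.0, 654.8 and 692.3 after withdrawal (1.4-fold lower, log2 change -0.49 ± 0.072 SE, adjusted p = 0.000128). Aldh18a1, an enzyme of proline synthesis, had 593.6, 609.0 and 577.7 at 4 h, against 753.3, 776.4 and 765.6 after withdrawal (1.29-fold lower, log2 change -0.37 ± 0.048 SE, adjusted p = 4.53e-05). Slc7a5, the large neutral amino acid transporter, rose, with 782.7, 642.1 and 675.2 at 4 h, against 510.1, 436.6 and 467.4 after withdrawal (1.48-fold, log2 change 0.57 ± 0.10 SE, adjusted p = 0.000573). Atf4 itself had a log2 difference of 0.06 (adjusted p = 0.342).

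Glycolysis genes fell in 8 of 20 members and rose in 2 (median log2 change -0.13). Slc2a3, the glucose transporter GLUT3, was the large exception, with 337.3, 403.4 and 311.3 at 4 h, against 148.1, 106.4 and 107.6 after withdrawal (2.92-fold, log2 change 1.55 ± 0.13 SE, adjusted p = 6.40e-07). Tpi1, triose phosphate isomerase, had 269.1, 284.0 and 285.9 at 4 h, against 361.1, 368.6 and 369.3 after withdrawal (1.31-fold lower, log2 change -0.39 ± 0.056 SE, adjusted p = 0.000102). Pfkfb3, which makes the activator of phosphofructokinase, had 30.5, 35.3 and 31.4 at 4 h, against 55.5, 42.7 and 46.2 after withdrawal (1.48-fold lower, log2 change -0.57 ± 0.10 SE, adjusted p = 0.000729). Gpi, glucose phosphate isomerase, had 1900, 1844 and 1981 at 4 h, against 2188, 2309 and 2161 after withdrawal (1.16-fold lower, log2 change -0.22 ± 0.042 SE, adjusted p = 0.00111). Pfkm, a phosphofructokinase subunit, had 158.2, 154.0 and 148.2 at 4 h, against 189.1, 188.2 and 212.3 after withdrawal (1.28-fold lower, log2 change -0.36 ± 0.079 SE, adjusted p = 0.00323). Pdk1, a kinase that inhibits pyruvate dehydrogenase, had 424.7, 384.1 and 440.0 at 4 h, against 572.4, 524.8 and 501.2 after withdrawal (log2 change -0.36 ± 0.068 SE, adjusted p = 0.00103), and its other probe set also fell (adjusted p = 2.90e-05). Hypoxia response genes were mixed, 4 of 14 higher and 6 lower. Epas1, the hypoxia-inducible factor HIF-2 alpha, had 175.4, 232.5 and 140.4 at 4 h, against 59.9, 53.2 and 56.1 after withdrawal (3.18-fold, log2 change 1.67 ± 0.14 SE, adjusted p = 4.65e-07). Vegfa, the endothelial growth factor, had 415.8, 526.1 and 524.6 at 4 h, against 208.4, 237.5 and 284.7 after withdrawal (2.01-fold, log2 change 1.01 ± 0.12 SE, adjusted p = 2.58e-05). Adm, adrenomedullin, had 127.0, 127.4 and 132.5 at 4 h, against 67.6, 66.9 and 68.4 after withdrawal (1.91-fold, log2 change 0.93 ± 0.094 SE, adjusted p = 3.35e-06). Ankrd37, an ankyrin repeat gene induced by hypoxia, had 37, 39.1 and 39.6 at 4 h, against 62.7, 61.1 and 50.6 after withdrawal (1.5-fold lower, log2 change -0.59 ± 0.11 SE, adjusted p = 0.00103). Egln1, a prolyl hydroxylase that marks HIF subunits for degradation, had 232.9, 199.7 and 219.4 at 4 h, against 270.7, 305.8 and 277.9 after withdrawal (1.31-fold lower, log2 change -0.39 ± 0.073 SE, adjusted p = 0.000903).

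In the plasminogen activator list 5 of 7 members rose and none fell. With probe sets of several targets left out 3 rose, since those standing for Plaur and Mmp14 were then not tested. Timp1, an inhibitor of matrix metalloproteinases, had 1016, 1194 and 1247 at 4 h, against 640.5, 829.8 and 710.5 after withdrawal (1.59-fold, log2 change 0.67 ± 0.083 SE, adjusted p = 2.70e-05). Mmp9, a matrix metalloproteinase, averaged 29.5 ± 4.82 at 4 h and 15.5 ± 1.66 after withdrawal (1.89-fold, log2 change 0.92 ± 0.18 SE, adjusted p = 0.00136). Mmp14, a membrane-bound metalloproteinase, had 652.4, 744.9 and 701.5 at 4 h, against 530.7, 561.1 and 612.6 after withdrawal (1.23-fold, log2 change 0.30 ± 0.068 SE, adjusted p = 0.00378), while its other probe set gave 0.04 (adjusted p = 0.929). Serpine2, an inhibitor of plasminogen activators, had a log2 difference of 0.10 (adjusted p = 0.325). Timp2 had 410.3, 603.5 and 739.0 at 4 h, against 347.6, 846.6 and 978.4 after withdrawal (log2 -0.22, adjusted p = 0.625), lowest on replicate 1 of both groups like the mesenchymal markers, and its adjusted p was 0.0211, lower at 4 h, without withdrawal replicate 1. Among S100 proteins and annexins 4 of 12 rose and none fell. Anxa5, an annexin that binds phosphatidylserine, had 1146, 1229 and 1219 at 4 h, against 738.2, 751.5 and 773.6 after withdrawal (1.59-fold, log2 change 0.67 ± 0.055 SE, adjusted p = 3.80e-07). Anxa7, another annexin, had 987.4, 921.4 and 973.3 at 4 h, against 750.8, 693.0 and 785.5 after withdrawal (1.29-fold, log2 change 0.37 ± 0.051 SE, adjusted p = 6.54e-05). Anxa3 had 26.7, 38.9 and 28.8 at 4 h, against 9.23, 9.2 and 9.38 after withdrawal (log2 change 1.74 ± 0.15 SE, adjusted p = 6.30e-07; 1.94-fold with the floor at 16). Without withdrawal replicate 1, 3 members of that list were called lower, and without 4 h replicate 2 there was 1.

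Among LIM-domain proteins 8 of 22 rose and 5 fell. Zyx, zyxin of focal adhesions, had 791.1, 706.0 and 746.5 at 4 h, against 301.2, 323.0 and 341.1 after withdrawal (2.32-fold, log2 change 1.22 ± 0.064 SE, adjusted p = 2.99e-09). Fblim1, which links filamin to adhesions, had 82.4, 82.4 and 82.9 at 4 h, against 31.8, 31.1 and 20.6 after withdrawal (3.02-fold, log2 change 1.59 ± 0.18 SE, adjusted p = 1.17e-05). Fhl3, a relative of Fhl2, had 1037, 1020 and 1139 at 4 h, against 704.7, 678.7 and 690.6 after withdrawal (1.54-fold, log2 change 0.62 ± 0.055 SE, adjusted p = 8.51e-07). Limk2, a kinase that inactivates cofilin, fell, with 102.1, 89.9 and 98 at 4 h, against 141.8, 132.0 and 131.1 after withdrawal (1.4-fold lower, log2 change -0.48 ± 0.072 SE, adjusted p = 0.00015). Lmo4, a LIM-only transcription cofactor, fell, with 958.2, 1115 and 1207 at 4 h, against 1713, 1938 and 2173 after withdrawal (1.78-fold lower, log2 change -0.83 ± 0.094 SE, adjusted p = 1.10e-05), while its dimmer probe sets gave -0.31 and -0.18 and did not pass (adjusted p = 0.104 and 0.316). The 5 lower members were 2 without withdrawal replicate 2 and 3 without withdrawal replicate 3, 4 h replicate 1 or 4 h replicate 2. In the epithelial list 4 of 14 rose and 4 fell. Cldn4, a tight junction claudin, had 678.7, 795.4 and 685.9 at 4 h, against 329.2, 309.0 and 268.9 after withdrawal (2.38-fold, log2 change 1.25 ± 0.074 SE, adjusted p = 1.20e-08). Perp, a desmosome protein, had 167.2, 171.4 and 167.0 at 4 h, against 66.3, 76.6 and 52.1 after withdrawal (2.63-fold, log2 change 1.39 ± 0.13 SE, adjusted p = 1.20e-06). Ocln, occludin of the same tight junctions, went the other way, with 313.1, 325.4 and 319.2 at 4 h, against 445.5, 421.8 and 405.3 after withdrawal (1.33-fold lower, log2 change -0.41 ± 0.058 SE, adjusted p = 8.57e-05).

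Heat shock chaperones fell in 6 of 21 members and rose in 3, beside 20.6% lower and 14.7% higher over all named genes. Their mean log2 level was 10.63 ± 0.03 at 4 h and 10.72 ± 0.02 after withdrawal (exact permutation test, p = 0.1). Beside the fall of Hspa1a, Bag3, a co-chaperone of the same protein, rose, with 315.0, 288.2 and 329.6 at 4 h, against 184.7, 158.7 and 170.7 after withdrawal (1.81-fold, log2 change 0.86 ± 0.084 SE, adjusted p = 2.43e-06). Hspd1, the mitochondrial chaperonin, had 7988, 7515 and 8057 at 4 h, against 8538, 8748 and 9330 after withdrawal (log2 change -0.18 ± 0.041 SE, adjusted p = 0.00462). The abundant chaperones Hsp90ab1 and Hspe1 had log2 differences of -0.09 and -0.07 (adjusted p = 0.317 and 0.0859). The number lower was 3 without withdrawal replicate 2 and 3 without 4 h replicate 2. Ribosome biogenesis genes gave 6 of 41 higher and 4 lower, with the share higher near the 14.7% of all named genes. The number higher was 2 without withdrawal replicate 3 and 2 without 4 h replicate 1, and the number lower was 1 or 2 without withdrawal replicate 1, withdrawal replicate 2 or 4 h replicate 1. Gar1, a protein of box H/ACA particles, had 3775, 3776 and 3878 at 4 h, against 3381, 3210 and 3292 after withdrawal (1.16-fold, log2 change 0.21 ± 0.034 SE, adjusted p = 0.000309), while Ncl, nucleolin, had a log2 difference of 0.10 (adjusted p = 0.118).

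**Figure D3:**
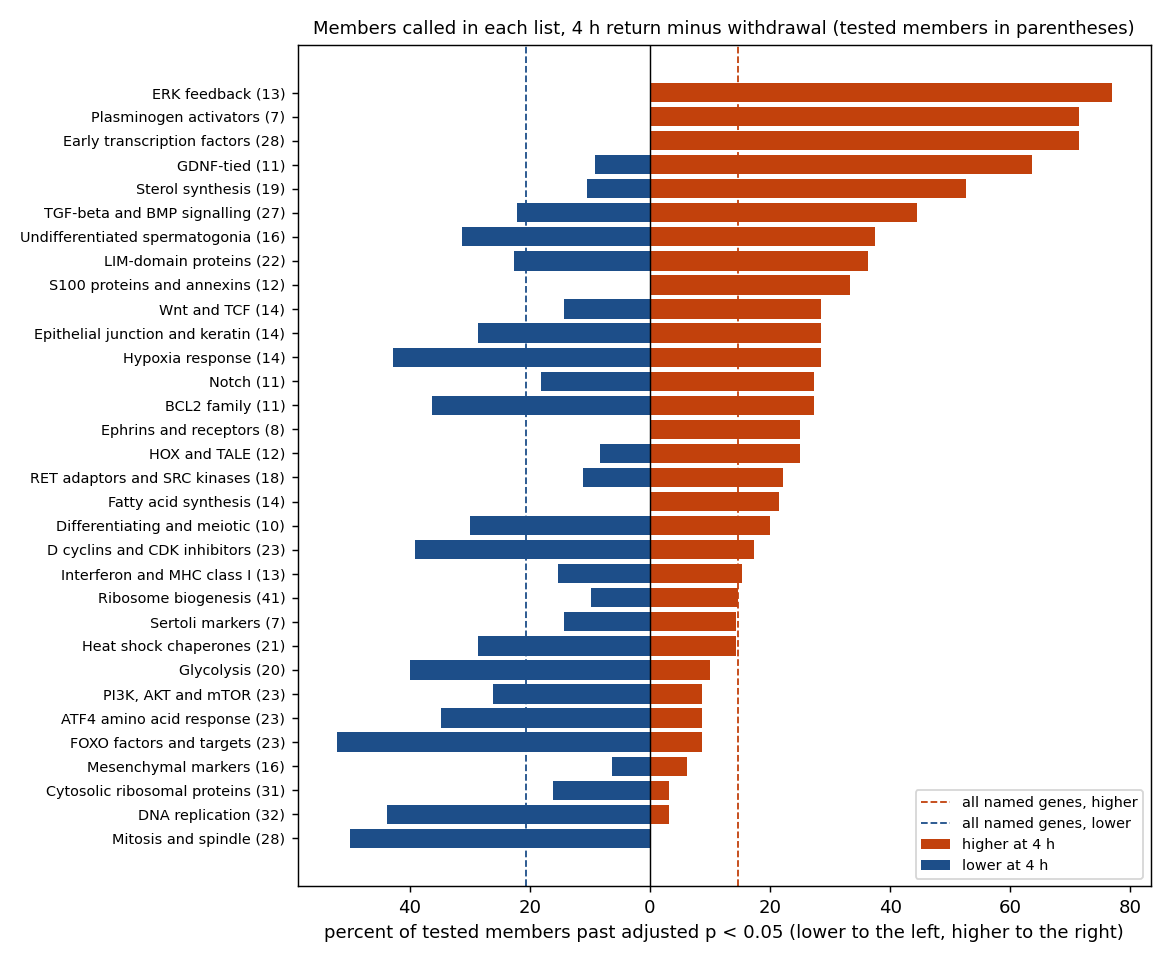
Percent of the tested members of each gene list with at least 7 tested members (number in parentheses) that passed an adjusted p of 0.05, lower at 4 h to the left and higher at 4 h to the right. Dashed lines mark the shares over all named genes, 20.6% lower and 14.7% higher; ERK feedback has 10 of 13 members to the right, and mitosis has 14 of 28 to the left with none to the right.

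Of 16 tested mesenchymal markers 1 rose and 1 fell. Twist1, a transcription factor of mesenchyme, had 149.8, 152.8 and 139.7 at 4 h, against 62.9, 58.6 and 89 after withdrawal (2.14-fold, log2 change 1.09 ± 0.13 SE, adjusted p = 2.38e-05). Pdgfra, a platelet-derived growth factor receptor, had 260.7, 407.7 and 428.9 at 4 h, against 490.8, 804.5 and 1038 after withdrawal (2.08-fold lower, log2 change -1.06 ± 0.26 SE, adjusted p = 0.00618). Vim, vimentin, had 973.7, 1360 and 1437 at 4 h, against 809.6, 1579 and 1475 after withdrawal (log2 0.00, adjusted p = 0.992), again lowest on replicate 1 of each group. The number of mesenchymal markers called lower was 8 without withdrawal replicate 1 and 5 with replicate 1 of both groups left out. Of 7 tested Sertoli markers 1 rose and 1 fell, with 2 lower without 4 h replicate 2, and their mean log2 level was 6.34 ± 0.03 at 4 h and 6.26 ± 0.06 after withdrawal (exact permutation test, p = 0.3). Wt1, a zinc-finger factor of Sertoli cells, had 36.2, 43 and 27.3 at 4 h, against 16.4, 15.2 and 17.6 after withdrawal (log2 change 1.10 ± 0.15 SE, adjusted p = 7.45e-05), while Gata4 and Amh, which define the same cells, were under the low-value filter. The tested peritubular markers Acta2 and Myl9 had log2 differences of 0.13 and -0.01 (adjusted p = 0.528 and 0.981), and the blood and vessel markers Cd3e and Pecam1 of 0.09 and 0.07 (adjusted p = 0.387 and 0.712). The mean log2 level of the 3 tested immune and blood markers was 5.69, 5.66 and 5.68 at 4 h, against 5.60, 5.55 and 5.52 after withdrawal, higher on every 4 h array (exact permutation test, p = 0.1, the smallest possible). Its part in the results was not tested.

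Direct tests set the 4 h cultures beside the neighbouring times. Between 4 h and 2 h of return 2172 of 15856 probe sets (13.7%) passed, 1198 higher and 974 lower at 4 h. Without 2 h replicate 1 the number lower was 578, and without 2 h replicate 3 it was 639. The 6 largest rises over 2 h were S100a3, Myh2, Tcf7l2, Iqsec3, Hivep2 and Kirrel3. Tcf7l2 averaged 246.6 at 4 h and 37.3 at 2 h (log2 change 2.74 ± 0.21 SE, adjusted p = 8.82e-07), and Iqsec3 133.8 and 25 (log2 change 2.43 ± 0.15 SE, adjusted p = 6.47e-08). Myh2 averaged 81.6 at 4 h and 11 at 2 h, the 2 h level being under 16 (5-fold with the floor, log2 change 2.90 ± 0.20 SE, adjusted p = 3.32e-07). Kirrel3, an adhesion molecule of the immunoglobulin superfamily, averaged 58.1 at 4 h and 16.6 at 2 h (log2 change 1.86 ± 0.25 SE, adjusted p = 0.000204). Over withdrawal it also rose, with 46.5, 63.1 and 64.8 at 4 h, against 13.1, 19.7 and 18.6 after withdrawal (log2 change 1.77 ± 0.25 SE, adjusted p = 0.000104).

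The 6 largest falls at 4 h against 2 h were Egr2, Stx11, Asb13, Clcc1, Bik and Slc35f2. Egr2 averaged 87.8 at 4 h and 330.4 at 2 h (3.85-fold lower, log2 change -1.94 ± 0.23 SE, adjusted p = 5.12e-05). Stx11, a syntaxin of immune cells, was above 16 only at 2 h, with means of 6.15 at 4 h and 21 at 2 h (1.3-fold lower with the floor). Asb13, a substrate adaptor of ubiquitin ligases, averaged 16.9 at 4 h and 47.2 at 2 h (log2 change -1.50 ± 0.20 SE, adjusted p = 0.000146). Against withdrawal it had 18.1, 20.5 and 12.1 at 4 h, against 40, 46 and 38.6 after withdrawal (log2 change -1.33 ± 0.20 SE, adjusted p = 0.000136). Bik averaged 137.5 at 4 h and 363.6 at 2 h (log2 change -1.40 ± 0.10 SE, adjusted p = 2.56e-07). Among the early transcription factors 3 of 28 were higher and 6 lower at 4 h than at 2 h (median log2 change -0.14), while among ERK feedback genes 6 of 13 were higher and 2 lower (median 0.27). Over all named genes 8.52% were higher and 7.22% lower.

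Between 8 h and 4 h of return 1532 probe sets (9.66%) passed, 565 higher and 967 lower at 8 h. With quantile normalization the split was 721 higher and 796 lower. The number called was 924 without 8 h replicate 2, 952 without 4 h replicate 1 and 917 with the mesenchymal marker level as a covariate, and without 8 h replicate 1 the number higher was 372. The 6 largest falls at 8 h were Fosb, Egr2, Sfn, Tcf7l2, Trib1 and Zhx2. Sfn averaged 150.1 at 8 h and 635.9 at 4 h (4.23-fold lower, log2 change -2.08 ± 0.086 SE, adjusted p = 1.99e-09), and Tcf7l2 80.6 and 246.6 (3.06-fold lower, log2 change -1.61 ± 0.21 SE, adjusted p = 0.000197). Zhx2, a zinc-finger and homeobox repressor, averaged 37.3 at 8 h and 90.3 at 4 h (log2 change -1.30 ± 0.18 SE, adjusted p = 0.000276). S100a3 averaged 69.7 at 8 h and 55.3 at 4 h and Myh2 101.5 and 81.6, differences that did not pass (adjusted p = 0.312 and 0.375). Sterol synthesis genes were lower at 8 h in 12 of 19 members and higher in none (median log2 change -0.37), and early transcription factors were lower in 13 of 28 and higher in 1 (median -0.38), against 6.55% lower and 4.12% higher over all named genes.

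The 6 largest rises at 8 h over 4 h were Ccsap, Gpd1l1, Prickle2, Flvcr2, Mypn and Rnf125. Mypn averaged 424.0 at 8 h and 188.2 at 4 h (2.25-fold higher, log2 change 1.17 ± 0.053 SE, adjusted p = 4.21e-09), and Rnf125 115.6 and 56.5 (log2 change 1.04 ± 0.14 SE, adjusted p = 0.000189). Prickle2, a planar cell polarity protein, averaged 75.5 at 8 h and 33.1 at 4 h (log2 change 1.22 ± 0.18 SE, adjusted p = 0.000453). Ret was higher at 8 h, with 3266 at 8 h and 1932 at 4 h (log2 change 0.76 ± 0.043 SE, adjusted p = 5.64e-08), and lower at 4 h than at 2 h, with 1932 and 2630 (log2 change -0.44 ± 0.043 SE, adjusted p = 8.39e-06), so that in these samples its lowest mean was the one at 4 h.

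**Figure D4:**
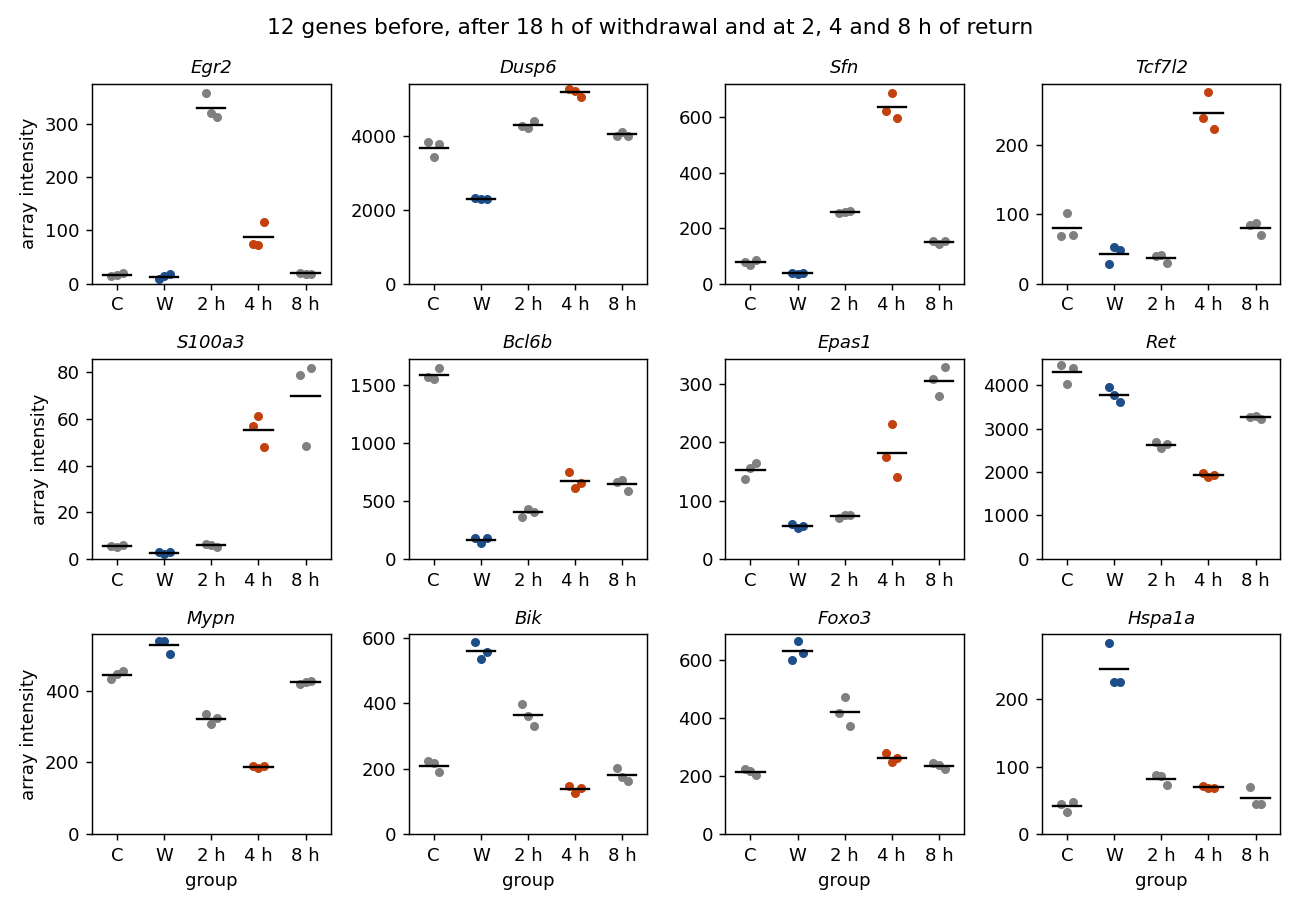
Array intensity (linear axis from 0) of 12 genes in the control (C), after withdrawal (W) and at 2, 4 and 8 h of return, with 3 arrays each and a bar at the mean; 4 h is orange and withdrawal blue. Egr2 is highest at 2 h, Sfn and Tcf7l2 are highest at 4 h, and Ret and Mypn are lowest at 4 h.

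Against the control that never lost GDNF, 3430 probe sets (21.6%) differed at 4 h, 1776 higher and 1654 lower. The 6 largest rises over the control were S100a3, Myh2, Sfn, Egr2, Hivep2 and Iqsec3. Sfn averaged 635.9 at 4 h and 76.5 in the control (8.33-fold, log2 change 3.06 ± 0.086 SE, adjusted p = 1.40e-11), and Hivep2 226.7 and 53 (4.36-fold, log2 change 2.12 ± 0.17 SE, adjusted p = 7.92e-07). The 6 largest falls were Flvcr2, Dhh, Inka2, Rnf125, Nr1h3 and Cyp2c23. Dhh, the desert hedgehog ligand, averaged 15.8 at 4 h and 64.3 in the control (4.06-fold lower, log2 change -2.02 ± 0.085 SE, adjusted p = 7.79e-10). Its difference from withdrawal was 0.03 ± 0.085 SE on log2 and did not pass (adjusted p = 0.858). The means at 4 h and after withdrawal, 15.8 and 15.6, both lay under the low-value level of 16. That comparison therefore cannot show a change among values under 16. At 4 h the mean of Dhh had not risen toward the 64.3 of the control. Inka2, a kinase inhibitor, averaged 17.6 at 4 h and 66.4 in the control (log2 change -1.90 ± 0.15 SE, adjusted p = 6.59e-07), and its log2 difference from withdrawal was -0.17 ± 0.15 SE (adjusted p = 0.433).

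Of the GDNF-tied genes tested against the control, 2 were higher at 4 h and 1 was lower. Ccnd2 averaged 943.0 at 4 h and 789.8 in the control (log2 0.25 ± 0.11 SE, adjusted p = 0.118), Etv5 754.0 and 765.9 (log2 0.00 ± 0.13 SE, adjusted p = 0.99), and Etv4 2730 and 2540 (log2 0.11 ± 0.081 SE, adjusted p = 0.366). Bcl6b averaged 668.5 at 4 h and 1588 in the control, and was lower at 4 h (log2 change -1.25 ± 0.11 SE, adjusted p = 1.47e-06). Pou3f1 was above the control, at 290.7 and 163.6 (log2 change 0.83 ± 0.12 SE, adjusted p = 0.000241). Ret was below it, at 1932 and 4301 (log2 change -1.15 ± 0.043 SE, adjusted p = 4.00e-10). Foxo3, which was lower at 4 h than after withdrawal, averaged 262.5 at 4 h and 215.0 in the control (log2 0.29, adjusted p = 0.0199), and Hspa1a 69.5 and 41.9 (log2 change 0.75 ± 0.17 SE, adjusted p = 0.00621). DNA replication genes were lower at 4 h than in the control in 15 of 32 members and higher in none (median log2 change -0.14), against 12.9% lower and 11.4% higher over all named genes.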

How the data were processed

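Gene expression was measured on Affymetrix rat arrays in 15 cultures. The authors deposited 1 intensity per probe set and array, on a linear scale; the submitters' processing notes name GCRMA and Partek 6.3, with settings not given in the sources used here. GCRMA subtracts an estimated background, so ratios of dim probe sets depend on that estimate. Here the deposited intensities were put on a log2 scale. Of 31099 probe sets, 57 controls were left out and 15856 reached log2 4 (intensity 16) on at least 3 arrays. The array platform's annotation gave 20832 probe sets 1 symbol, 436 several and 9831 none. The brightest tested probe set of a symbol stood for its gene (9002 genes).

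All 15 arrays entered 1 linear model of 5 group means without covariates, fitted with limma 3.58.1 under R 4.3.3 and moderated with eBayes using its trend option, and p-values were adjusted by Benjamini-Hochberg over all tested probe sets in each comparison, with 0.05 as threshold. Single summary values used exact permutation tests, two-sided (Python 3.11.15, scipy 1.17.1). On simulated data for 4 h against withdrawal, with 200 of 15856 probe sets changed, the fit recovered 32% at a log2 change of 0.25, 72% at 0.5, 92% at 1 and 98% at 2, with 6 false calls. Far fewer probe sets were changed there than the 30.6% called in the data, and the simulated noise was independent between probe sets. Recovery and false calls in the data can therefore differ from these values.

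The samples compared, the 36 gene lists and the tests were chosen with earlier results of these data known. Genes were named by rule: the 15 largest rises and 15 largest falls among calls with separate groups (6 of each in the other comparisons), up to 6 called members per list with the smallest adjusted p, and up to 2 members not called with the highest level, except that all tested members of the GDNF-tied and GDNF receptor lists were named. Cdkn1c, Cdkn2a, Cdkn2d, Cdk4, Acat2 and Ebp are mentioned outside this rule. They are not among the named genes whose calls were followed across the alternatives. Alternatives covered the low-value filter and floor, normalization, array weights, the samples fitted, the replicate number as a block, the mesenchymal marker level as a covariate, and each array left out.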

Additional observations from a re-analysis of the deposited data

How the results depend on the processing

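The 4 h against withdrawal count, 4848, ranged from 3501 (only the groups compared) to 5167 (mesenchymal marker level as a covariate) over the alternatives, and from 3837 to 4485 with 1 array left out. Of 185 called named genes, 158 could be tested in all 18 alternatives, and 132 of these kept their call in each; 0 of the 185 changed direction where tested. With each array's median set equal, 2666 probe sets were higher and 2159 lower. For 8 h against 4 h the count, 1532, was 892 with only the groups compared, 917 with the mesenchymal covariate and 994 without replicate 1 of the withdrawal and 4 h groups. It ranged from 924 to 1374 with 1 array left out. For 4 h against the control, 3430 became 2025 with only the groups compared. A fit of 2 groups has fewer arrays to estimate the spread; the cause of the other differences was not tested. For 4 h against 2 h, leaving out 1 array gave 1489 to 1986, and array weights gave 2900 against 2172.

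The replicate numbers are shared across groups. The deviations of same-numbered 4 h and withdrawal arrays correlated at 0.389, 0.014 and 0.192. For 4 h replicates 1 and 3 the same-numbered withdrawal array correlated best, while 4 h replicate 2 correlated best with withdrawal replicate 3 (0.17). With this partial match the main fit did not take the numbers as pairs, and whether they are pairs is not settled. With the replicate block, 5047 probe sets were called, 2413 higher and 2634 lower.

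Limits: 3 arrays a group, no array kept without GDNF for the further 4 h, and 51.1% of probe sets bright enough to test. Folds of genes under 16 in 1 group depend on the floor.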

Other observations

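In the EGF family 2 of 6 tested members rose and none fell. Hbegf, an EGF receptor ligand, had 16.1, 20.9 and 34.7 at 4 h, against 4.35, 7.87 and 8.39 after withdrawal (log2 change 1.78 ± 0.29 SE, adjusted p = 0.000272), with the withdrawal arrays under 16; with low values set to 16 its adjusted p was 0.0825. Errfi1, which inhibits the EGF receptor, had 1649, 1674 and 1719 at 4 h, against 1356, 1454 and 1452 after withdrawal (1.18-fold, log2 change 0.24 ± 0.058 SE, adjusted p = 0.00545). Of 8 ephrins and receptors 2 rose and none fell, and Epha2 carried the larger change. The number higher was 1 without withdrawal replicate 1, withdrawal replicate 3, 4 h replicate 1 or 4 h replicate 2. Of 13 interferon and MHC class I genes 2 rose and 2 fell. The number higher was 1 without any single withdrawal array and 1 without 4 h replicate 1 or 3, and the number lower was 4 without 4 h replicate 1 and 1 without 4 h replicate 2. Irf1, an interferon regulatory factor, had 984.4, 938.1 and 944.6 at 4 h, against 1121, 1124 and 1129 after withdrawal (1.18-fold lower, log2 change -0.24 ± 0.048 SE, adjusted p = 0.00195), and Psmb10, an immunoproteasome subunit, had 1333, 1356 and 1470 at 4 h, against 1102, 1137 and 1251 after withdrawal (1.19-fold, log2 change 0.25 ± 0.065 SE, adjusted p = 0.00845).

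Cytosolic ribosomal protein genes, among the brightest on the arrays, had 1 of 31 members higher and 5 lower, all of the lower ones by less than 1.1-fold; 0 were lower with each array's median set equal, 1 with quantile normalization, 0 without withdrawal replicate 2, 0 without 4 h replicate 2, 1 without withdrawal replicate 3 and 3 without 4 h replicate 1. Rpl3 had 27693, 26810 and 27500 at 4 h, against 28292, 28361 and 29971 after withdrawal (log2 -0.08, adjusted p = 0.0687). Ccsap, a centriole and spindle protein, averaged 39.6 in the control, 10.1 after withdrawal, 10.6 at 2 h, 14.5 at 4 h and 42.1 at 8 h. Gpd1l1 averaged 173.1 in the control, 67.9 after withdrawal, 43.9 at 2 h, 64.2 at 4 h and 181.0 at 8 h. Ccsap was under 16 both at 4 h and after withdrawal, so no difference is given between them. Gpd1l1 had a log2 difference of -0.09 between 4 h and withdrawal (adjusted p = 0.641).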
